A study of Homo sapiens with 6 samples.

Results

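A set of 10 genes that govern the activity of mTORC1, the kinase complex that couples cell growth to nutrients, were followed in PANC-1 cells given fibroblast vesicles: SESN1, SESN2, SESN3, DDIT4, DEPTOR, RRAGC, RRAGD, FLCN, CASTOR2 and RHEB. These 10 rows were taken by gene name from a count table of 32078 named genes. They were chosen with results of this same contrast in view, so their differences between the groups are given as a description, without a test. SESN2 averaged 60.7 ± 8.89 CPM in the vesicle-treated libraries and 248 ± 24.97 CPM in the control libraries (SD, n = 3 each), and DDIT4 averaged 144 ± 35.8 CPM in the vesicle-treated libraries and 493 ± 25.4 CPM in the control libraries. CPM are library-size-scaled counts, with library sizes adjusted by the trimmed mean of M-values (TMM). The other members differed less, and SESN3 was at or near 0 in all 6 libraries.

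PANC-1 cells are a standard cell line derived from a carcinoma of the human pancreas. One group is PANC-1 labelled as treated with extracellular vesicles (EVs) from cancer-associated fibroblasts (CAFs), 3 libraries, and the other is PANC-1 labelled as controls with no treatment, 3 libraries. The protocol text mentions vesicle pretreatment in the same words for all 6 libraries, so the groups rest on titles and treatment labels; the sources used here give neither vesicle dose nor exposure time. Poly(A) RNA was sequenced, and the 6 libraries held 21647493 to 27498709 counts in named genes. Nothing in the labels ties the replicates to separate cultures, so a p-value here reflects the spread among 6 libraries, and that spread may be technical.

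Cells hold mTORC1 in check when amino acids or energy run short. Leucine binds SESN2, and without leucine SESN2 restrains GATOR2, the complex that otherwise keeps the inhibitor GATOR1 away from the Rag GTPases. CASTOR1, alone or paired with CASTOR2, does the same for arginine. Active Rag heterodimers (RagA or RagB with RagC or RagD) bring mTORC1 to the lysosome, where RHEB switches it on, and the FLCN complex acts on RagC and RagD. DDIT4, also called REDD1, lowers RHEB activity through the TSC complex, and DEPTOR binds and inhibits mTOR itself. SESN2 and DDIT4 are known targets of ATF4, a transcription factor induced by amino acid shortage and other stresses. SESN3 is known as a FOXO target, and DDIT4 responds to hypoxia and glucocorticoids as well.

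The start regions of SESN2 and DDIT4 are shown because these are the members with the largest differences among the 9 tested, and that of RRAGC because it holds an E-box and its transcript differed little. RefSeq windows of 250 bases before to 50 after the annotated start, on build GRCh38.p14, were given for 7 of the 10 members in 9 windows. SESN1 had 3 of these windows; CASTOR2, DEPTOR and RRAGD had none. Capitals mark matches to the letters searched on both strands: TGATGNAA (C/EBP-ATF element), TGACGTCA (cyclic AMP response element), CACGTG (E-box), ACGTG (a form of the hypoxia response core, contained in every E-box) and GTAAACA (FOXO). Hypoxia core below means the letters ACGTG only, and other forms of that core were not searched. All are written 5′ to 3′ on the strand of the gene.
SESN2, chr1:28259268-28259567, plus strand: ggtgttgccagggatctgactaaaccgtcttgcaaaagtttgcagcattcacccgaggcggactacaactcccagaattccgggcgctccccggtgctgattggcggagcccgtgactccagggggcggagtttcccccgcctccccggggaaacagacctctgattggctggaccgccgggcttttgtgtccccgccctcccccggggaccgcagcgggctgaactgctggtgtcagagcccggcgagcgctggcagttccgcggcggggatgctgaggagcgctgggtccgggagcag
DDIT4, chr10:72273674-72273973, plus strand: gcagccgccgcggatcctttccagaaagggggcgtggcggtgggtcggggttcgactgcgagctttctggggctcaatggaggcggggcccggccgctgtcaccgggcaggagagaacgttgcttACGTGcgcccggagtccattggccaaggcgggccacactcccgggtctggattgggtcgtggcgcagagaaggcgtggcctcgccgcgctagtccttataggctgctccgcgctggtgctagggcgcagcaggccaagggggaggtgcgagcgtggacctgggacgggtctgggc
RRAGC, chr1:38859723-38860022, minus strand: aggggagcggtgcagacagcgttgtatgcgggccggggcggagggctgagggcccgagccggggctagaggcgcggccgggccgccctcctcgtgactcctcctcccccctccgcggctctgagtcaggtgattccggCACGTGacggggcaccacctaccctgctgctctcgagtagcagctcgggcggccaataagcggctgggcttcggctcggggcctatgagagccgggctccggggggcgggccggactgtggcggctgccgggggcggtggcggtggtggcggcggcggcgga

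The SESN2 window held none of the 5 sets of letters. The DDIT4 window held 1 match to ACGTG, the form of hypoxia core searched, 125 to 121 bases before the start. RRAGC held an E-box 112 to 107 bases before the start, which accounts for both of its hypoxia core matches, and RHEB, not shown, held 1 hypoxia core on the opposite strand. The windows of SESN1, SESN3 and FLCN held no match. Among all 35116 windows of the table, 3.62% held the C/EBP-ATF letters, 1.85% the cyclic AMP element, 7.26% the E-box, 21.4% the hypoxia core and 3.42% the FOXO letters. A match describes these letters only, and their absence says nothing of sites outside the window.

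Library totals overlapped between the groups, but some measures of makeup did not. The 10 most abundant genes took 5.60% to 5.85% of counts in the EV libraries and 5.90% to 6.12% in the control libraries. Mitochondrially encoded transcripts took 0.747% to 1.04% in the EV libraries and 0.749% to 1.06% in the control libraries, which overlapped. Of 6 epithelial markers, KRT8, KRT18 and KRT19 were abundant in every library, while EPCAM and CDH1 had 0 counts in all 6. KRT7 was near 0 and not tested, at 0.037 to 0.12 CPM in the EV libraries and 0.21 to 0.37 CPM in the control libraries. KRT19 was lower, at 264 to 294 CPM in the EV libraries and 370.1 to 419 CPM in the control libraries (log2 fold change -0.48, adjusted p = 5.78e-06, edgeR), and KRT8 and KRT18 were not called. Of 9 fibroblast markers with a row, 4 had 0 counts in all 6 libraries (DCN, LUM, THY1 and POSTN), and the 9 summed to 199 to 219 CPM in the EV libraries and to 120 to 146 CPM in the control libraries. Most of that sum was the collagen gene COL1A2, at 178 to 197 CPM in the EV libraries and 99.3 to 121 CPM in the control libraries (log2 fold change 0.71, adjusted p = 3.72e-07, edgeR). ACTA2, smooth muscle actin, went the other way, at 2.22 to 3.54 CPM in the EV libraries and 5.18 to 5.27 CPM in the control libraries (log2 fold change -0.91, adjusted p = 0.000233, edgeR), and COL3A1 was not called (log2 fold change 0.10, adjusted p = 0.398). The part of these transcripts in the results below was not tested. In bulk RNA, fewer cells of one kind and less RNA per cell cannot be told apart.

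The sestrins differed in opposite directions. SESN2, the leucine sensor and stress-induced sestrin, was at 70.6, 53.2 and 58.5 CPM in EV replicates 1, 2 and 3, against 219.8, 266 and 260.1 CPM in control replicates 1, 2 and 3. Every EV library lay far below every control library. The fitted log2 fold change, EV over control, was -2.03 ± 0.09 (SE from edgeR), or 4.08-fold lower. SESN1, another sestrin that acts on GATOR2, was at 6.40, 7.79 and 7.59 CPM in the EV libraries, against 5.53, 5.78 and 4.69 CPM in the control libraries. These groups did not overlap either, but the gap was narrow, and the log2 fold change was 0.44 ± 0.13 (SE). It was 0.36 without control replicate 3, which had the lowest SESN1 value.

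SESN3, the FOXO-responsive sestrin, had 0, 0 and 1 counts in the EV libraries and 1, 0 and 0 counts in the control libraries. With the limit for a count of 0 set at 3 counts, the floor was 0.111 to 0.138 CPM in the EV libraries and 0.110 to 0.129 CPM in the control libraries, so no difference was detectable at this depth. Such floors cover counting error only. Levels can be compared between genes only per length, and the exon length used here, the union of exons in GENCODE release 29, includes every annotated isoform. On that scale SESN2 made up 94.2%, 91.0% and 91.9% of the sestrin total in the EV libraries, against 98.3%, 98.6% and 98.8% in the control libraries. SESN2 was the main sestrin transcript in both groups, and SESN1 made up 7.60% ± 1.66 of the total in EV libraries and 1.44% ± 0.233 in control libraries (SD, n = 3 each).

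**Figure D1:**
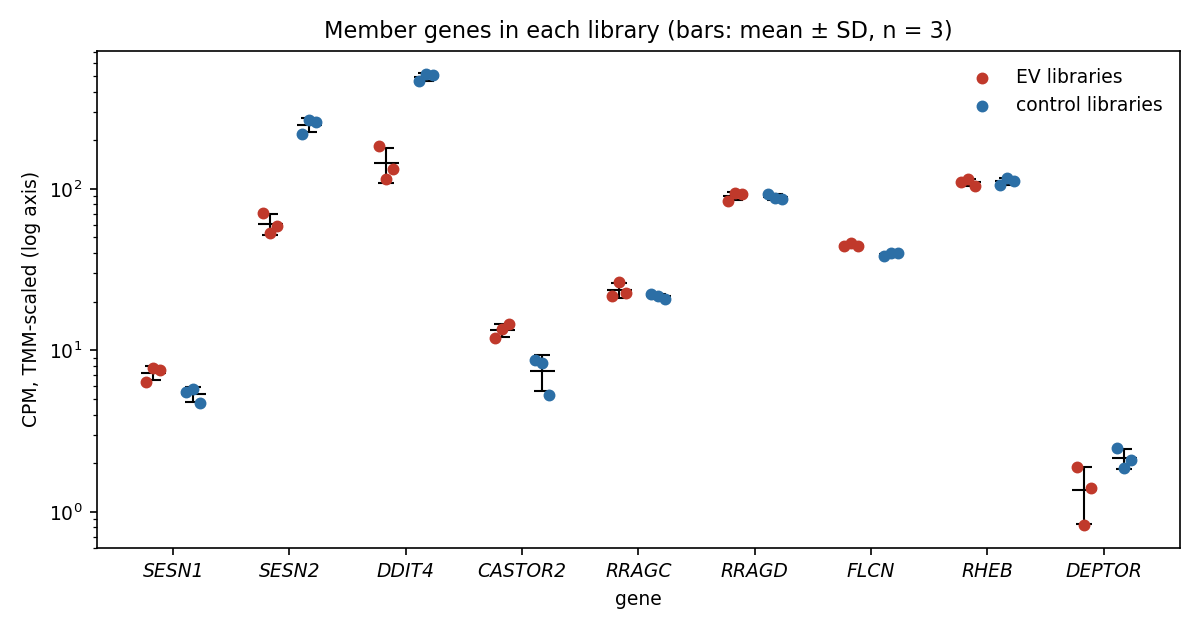
TMM-scaled CPM on a log axis for the 9 members that passed the count filter, with 1 point per library, EV at the left and control at the right of each pair, and bars for mean ± SD (n = 3). SESN2 and DDIT4 lie lower in all EV libraries, CASTOR2, SESN1 and FLCN lie slightly higher, and the groups of RRAGC, RRAGD, RHEB and DEPTOR overlap.

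DDIT4, the stress-induced brake that acts through the TSC complex, was at 184, 115 and 133 CPM in EV replicates 1, 2 and 3, against 464, 511 and 504 CPM in the control libraries. The groups were far apart, but EV replicate 1 stood well above the other EV libraries. The log2 fold change was -1.78 ± 0.11 (SE), or 3.42-fold lower, and it was -1.99 without EV replicate 1. DDIT4 and SESN2 shared the order of the 6 libraries at both ends: EV replicate 2 was the lowest for both genes, EV replicate 1 was the highest EV library and control replicate 1 the lowest control library. The log2 ratio of DDIT4 to SESN2, both per exon length, was 2.13, 1.86 and 1.93 in the EV libraries, against 1.82, 1.69 and 1.70 in the control libraries. DDIT4 thus differed slightly less than SESN2 between the groups. GENCODE places an antisense gene, DDIT4-AS1, across 847 exonic bases of DDIT4. DDIT4-AS1 has no row in the count table, so it could not be analysed. The sources used here do not say whether strand was used in counting.

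DDIT4L, a paralog of DDIT4 also called REDD2 and not a member, had 4, 5 and 8 counts in the EV libraries and 18, 24 and 30 counts in the control libraries. It was lower in all EV libraries, by -1.97 ± 0.39 on the log2 scale (SE). Its adjusted p = 0.000444 comes from edgeR's quasi-likelihood test with Benjamini-Hochberg adjustment over all 14670 tested genes. The same holds for every adjusted p given here from the fit with all libraries kept. Where a library was left out, the same test was adjusted over the genes tested in that fit. Its level was at most 1.10 CPM in any library.

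CASTOR2, partner of the arginine sensor CASTOR1, went the other way. It was at 12.0, 13.5 and 14.5 CPM in the EV libraries, against 8.74, 8.37 and 5.28 CPM in the control libraries. The groups did not overlap, and control replicate 3 was low. The log2 fold change was 0.84 ± 0.14 (SE), or 1.79-fold higher, and 0.64 without control replicate 3. CASTOR2 has near-identical copies, so its count is uncertain. The copy CASTOR3 was at 3.44, 3.25 and 3.62 CPM in the EV libraries and 2.14, 2.93 and 2.02 CPM in the control libraries, and the sum of both was 16.8 ± 1.33 CPM in the EV libraries and 9.83 ± 2.201 CPM in the control libraries (SD, n = 3 each). CASTOR1 was at 1.96, 1.65 and 1.81 CPM in the EV libraries and 2.74, 2.23 and 1.54 CPM in the control libraries, overlapping groups (log2 fold change -0.25 ± 0.22, adjusted p = 0.39, edgeR).

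RRAGC and RRAGD encode RagC and RagD, the Rag partners on which FLCN acts, and RRAGD is known as a target of the TFEB family. RRAGC was at 21.7, 26.5 and 22.7 CPM in the EV libraries, against 22.4, 21.8 and 20.8 CPM in the control libraries. RRAGD was at 84.2, 93.6 and 92.9 CPM in the EV libraries, against 93.4, 87.4 and 86.7 CPM in the control libraries. Groups overlapped for both, with log2 fold changes of 0.13 ± 0.09 and 0.02 ± 0.06 (SE). GENCODE places AL139260.2, which has no row in the count table, across 1183 exonic bases of RRAGC on the same strand. Per exon length, RRAGD made up 79.6% ± 1.21 of the RagC and RagD total in the EV libraries and 80.8% ± 0.347 in the control libraries (SD, n = 3 each).

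FLCN, folliculin, was at 44.1, 46.0 and 44.0 CPM in the EV libraries, against 38.5, 39.8 and 39.8 CPM in the control libraries. The libraries of each group lay close together and did not overlap between groups, yet the difference was small, with a log2 fold change of 0.18 ± 0.06 (SE). GENCODE places AC055811.2 across 1161 exonic bases of FLCN on the same strand. That gene had 2, 0 and 2 counts in the EV libraries and 3, 1 and 1 counts in the control libraries. RHEB, the GTPase that activates mTORC1, was at 109.8, 114 and 104.5 CPM in the EV libraries, against 104.8, 117 and 111.5 CPM in the control libraries. The groups overlapped, and its log2 fold change was -0.02 ± 0.06 (SE). The pseudogene RHEBP2 was at 7.91, 7.06 and 6.83 CPM in the EV libraries and 10.2, 11.1 and 8.17 CPM in the control libraries, and reads shared with it make RHEB uncertain to that extent.

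DEPTOR, the inhibitor bound to mTOR, had 51, 18 and 35 counts in the EV libraries, or 1.89, 0.825 and 1.41 CPM, against 58, 51 and 57 counts in the control libraries, or 2.48, 1.86 and 2.09 CPM. The groups overlapped, and EV replicate 2 was the lowest library. The log2 fold change was -0.61 ± 0.25 (SE), and -0.37 without EV replicate 2. Such low counts limit what can be said of this gene.

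**Figure D2:**
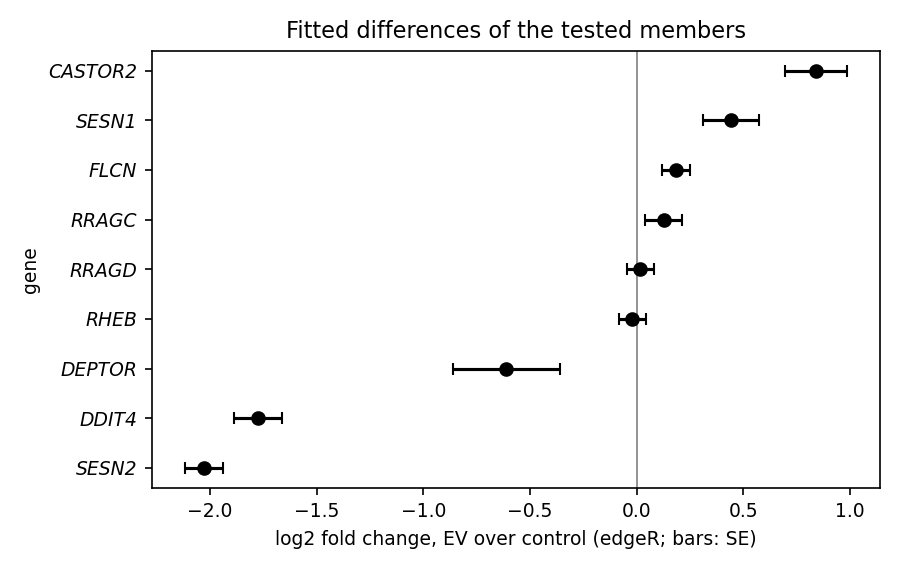
Fitted log2 fold change, EV over control, of the 9 tested members, with SE bars from edgeR. SESN2 at -2.03 and DDIT4 at -1.78 stand far below 0, RRAGD and RHEB lie at 0.02 and -0.02, and CASTOR2 at 0.84 is the highest.

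Of the 10 members 9 passed the count filter, and 3 were called higher and 2 lower at an adjusted p under 0.05, while 40.9% of all 14670 tested genes were called in either direction, 20.2% higher and 20.7% lower. The groups did not overlap for 5 of the 9 members, and for 50.6% of all tested genes. These counts, and the calls of members in other settings below, are description only. They are no test of the members, which were proposed from this contrast. FLCN was not called without EV replicate 2 (log2 fold change 0.16), without EV replicate 3 (0.20) or without control replicate 1 (0.17). With every library kept, it was not called under upper-quartile scaling (0.16) or with the replicate number as a block (0.18). It was thus called in 11 of 16 other settings. SESN1 was not called without control replicate 3. DEPTOR, not called in the main fit, was called lower in 3 settings: without a count filter, with the replicate block and without EV replicate 1. The authors' deposited table gives log2 fold changes of 2.02 for SESN2 and 1.76 for DDIT4, marks both Up, and marks none of the other 8 members. The same table gives q-values, from a test not named here, of 2.68e-06 for CASTOR2, 0.0042 for SESN1 and 0.0186 for FLCN. Absence of a mark is thus not absence of a q under 0.05. The table's name puts the EV libraries first. By its own group means the fold changes run control over EV, so name and sign disagree. The table rests on the same libraries, and every direction given here rests on the sample labels.

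Within a library, the order of the members per exon length was led by DDIT4, at 69.9 ± 17.4 CPM per kb in the EV libraries and 239.5 ± 12.3 CPM per kb in the control libraries (SD, n = 3 each). In the EV libraries RHEB came next, at 31.0 ± 1.39 CPM per kb, followed by RRAGD at 17.8 ± 1.04 and SESN2 at 17.6 ± 2.57 CPM per kb, which did not differ beyond their spread. In the control libraries SESN2 came second, at 72.0 ± 7.23 CPM per kb, above RHEB at 31.4 ± 1.70 and RRAGD at 17.6 ± 0.725 CPM per kb. CASTOR2 followed at 9.77 ± 0.920 CPM per kb in the EV libraries and 5.48 ± 1.40 in the control libraries, where its range overlapped that of RRAGC. RRAGC and FLCN were neighbours that overlapped in both groups, at 4.58 ± 0.488 and 4.57 ± 0.115 CPM per kb in EV libraries and at 4.19 ± 0.154 and 4.02 ± 0.0765 CPM per kb in control libraries. SESN1, at 1.42 ± 0.147 CPM per kb in the EV libraries, lay above DEPTOR at 0.523 ± 0.203, whereas in the control libraries their ranges overlapped, at 1.04 ± 0.111 and 0.819 ± 0.120 CPM per kb. Among tested genes with a length, SESN2 stood at percentile 80.9 in the EV mean and 95.7 in the control mean, and DDIT4 at percentile 95.5 in the EV mean and 99.1 in the control mean.

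**Figure D3:**
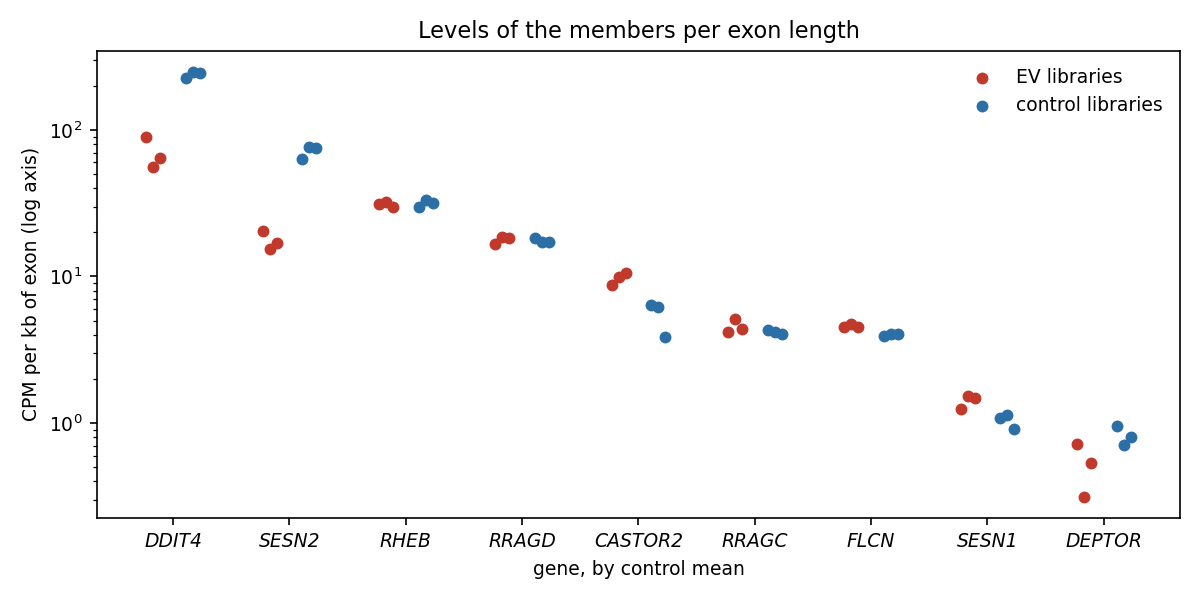
CPM per kb of exon on a log axis for 9 members, with 1 point per library, EV at the left and control at the right of each pair, ordered by the control mean. SESN2 lies second in the control libraries and level with RRAGD, at 17.6 and 17.8 CPM per kb, in the EV libraries.

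The transcripts most like SESN2 and DDIT4 were sought among genes averaging at least 10 CPM, by the root-mean-square distance between log2 CPM profiles over the 6 libraries, each centred on its mean. Nearest to SESN2 among 9020 genes were DDIT3 (CHOP, a stress transcription factor) at a distance of 0.06, ATF3 (0.09), CTH (0.09), DDIT4 (0.15) and PPP1R15A (0.15), which encodes GADD34. Nearest to DDIT4 were the apoptosis gene BBC3 (0.09), ULBP1 (0.12), CACNG6 (0.13), CHAC1 (0.13) and DDIT3 (0.14). DDIT4 was thus the fourth nearest gene to SESN2, and SESN2 the sixth nearest to DDIT4. Distances over 6 libraries mostly reflect the difference between the groups, and the profiles share library depth and scaling. Within the EV group DDIT3 had 9.10, 7.06 and 6.83 CPM, BBC3 had 13.3, 8.80 and 9.80 CPM and CHAC1 had 32.4, 22.4 and 23.3 CPM. EV replicate 1 was the highest EV library for each of them, as for SESN2 and DDIT4. These genes were picked for likeness over the same 6 libraries, so the shared order follows in part from the selection and is no added evidence of likeness.

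**Figure D4:**
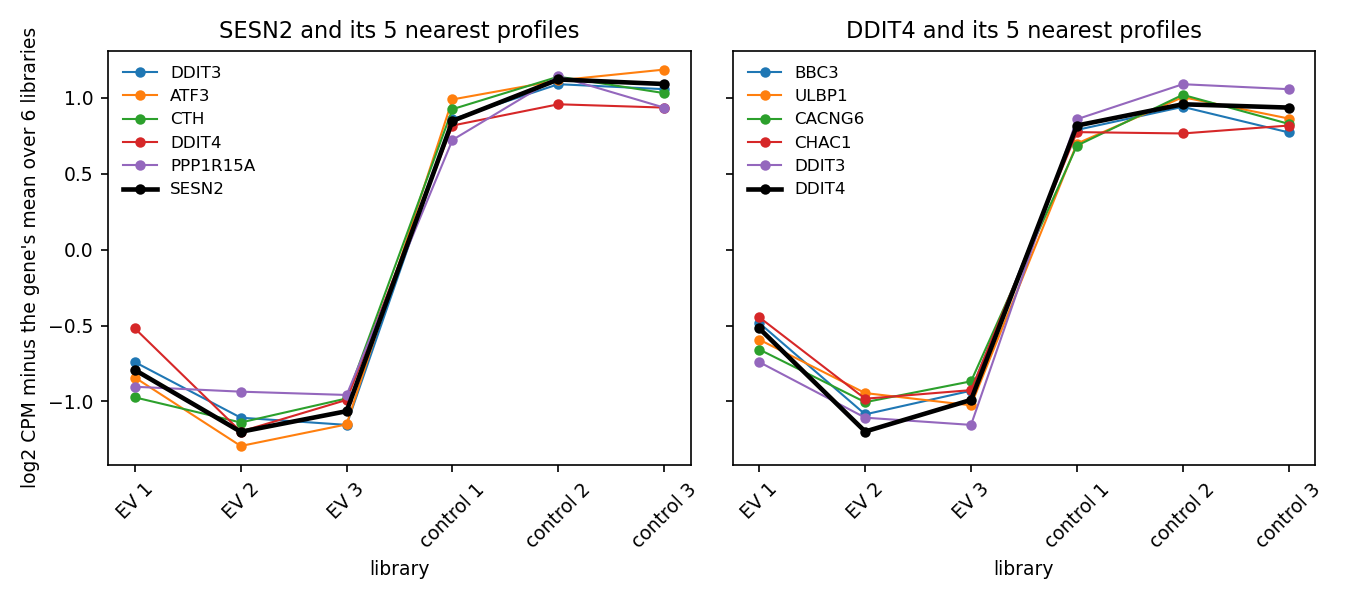
Log2 CPM minus the gene's own mean over 6 libraries, for SESN2 (left panel) and DDIT4 (right panel) in black with their 5 nearest genes in colour, EV libraries first. All curves lie below 0 in the 3 EV libraries and above 0 in the 3 control libraries, and EV replicate 1 is the highest EV library for DDIT4 and SESN2.

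Other genes of the pathway were grouped by role, with the members left out. Of 75 tested genes in the 8 lists of mTORC1 machinery and its direct inputs and substrates, 16 were higher and 20 lower, 48% of them called against 40.9% of all tested genes, and their median log2 fold change was -0.02, against -0.01 over all tested genes. The counts of each list below stand against 20.2% of all tested genes called higher and 20.7% called lower, and nothing particular to a list was tested.

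Around the Rag GTPases, 4 of 8 genes of Rags and Ragulator, the lysosomal anchor of the Rags, rose and 0 fell (median log2 fold change 0.16), so 50% were called against 40.9% of all tested genes. RRAGA, which encodes RagA, was at 79.9, 74.99 and 74.0 CPM in the EV libraries and at 63.8, 62.5 and 67.6 CPM in the control libraries (log2 fold change 0.24 ± 0.06, adjusted p = 0.00443, edgeR). The Ragulator subunit gene LAMTOR4 rose by 0.33 ± 0.07 (adjusted p = 0.000868, edgeR). LAMTOR5 rose by 0.24 ± 0.07 (adjusted p = 0.0132, edgeR) but lost its call when EV replicate 2 (adjusted p = 0.104, edgeR) or control replicate 2 (adjusted p = 0.0509, edgeR) was left out, and without EV replicate 2 only 2 genes of this list rose. RRAGB was at 14.8 ± 0.838 CPM in EV libraries and 14.2 ± 1.94 CPM in control libraries (log2 fold change 0.06, adjusted p = 0.692, edgeR). The FLCN partners FNIP1 (log2 fold change 0.26 ± 0.07, adjusted p = 0.00521) and FNIP2 (0.47 ± 0.10, adjusted p = 0.00108) rose too.

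Upstream of the Rags, 3 of 7 genes of GATOR1 and its scaffold KICSTOR fell and 0 rose, and this share of 42.9% called was near the 40.9% of all tested genes. Among those that fell were the GATOR1 subunit gene NPRL3 (log2 fold change -0.26 ± 0.06, adjusted p = 0.00157, edgeR) and the KICSTOR gene ITFG2 (-0.41 ± 0.08, adjusted p = 0.000628). In GATOR2 and the amino acid sensors, 1 of 11 tested genes rose and 1 fell. The riser was SAR1B, a small GTPase reported as a leucine sensor, at 44.8, 52.9 and 49.3 CPM in the EV libraries and 32.8, 34.9 and 37.8 CPM in the control libraries (log2 fold change 0.47 ± 0.08, adjusted p = 6.93e-05, edgeR). LARS1, leucyl-tRNA synthetase, fell by 0.17 on the log2 scale (adjusted p = 0.0207, edgeR) and lost its call when EV replicate 1 (adjusted p = 0.117), EV replicate 2 (adjusted p = 0.0588) or control replicate 3 (adjusted p = 0.0818) was left out. None of the 5 GATOR2 subunit genes WDR24, WDR59, MIOS, SEH1L and SEC13, named after their values were seen, passed, with log2 fold changes between -0.06 and 0.06.

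Among genes of the mTOR complexes and their assembly, 4 of 10 rose and 1 fell. MAPKAP1, an mTORC2 subunit also called SIN1, rose by 0.55 ± 0.09 on the log2 scale (adjusted p = 7.75e-05, edgeR). TTI1 (0.36 ± 0.07, adjusted p = 0.00051) and TELO2 (0.33 ± 0.07, adjusted p = 0.000537), partners in the assembly of mTOR kinases, rose with it. MTOR itself was at 187, 196 and 212 CPM in the EV libraries and 248, 207 and 228 CPM in the control libraries, overlapping groups (log2 fold change -0.20 ± 0.07, adjusted p = 0.0252, edgeR). It lost its call when EV replicate 1 (adjusted p = 0.143), EV replicate 2 (adjusted p = 0.0845) or control replicate 1 (adjusted p = 0.144) was left out, and then 0 genes of the list fell. RPTOR, which encodes the mTORC1 subunit raptor, was at 91.5 ± 6.02 CPM in EV libraries and 89.7 ± 6.14 CPM in control libraries (log2 fold change 0.03, adjusted p = 0.751, edgeR).

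In the TSC complex and its neighbours 1 gene rose and 3 fell of 5 tested. TBC1D7, the third subunit of the TSC complex, rose by 0.66 ± 0.09 (adjusted p = 1.19e-05, edgeR), whereas TSC2 fell by 0.22 on the log2 scale (adjusted p = 0.00811; adjusted p = 0.0511 without EV replicate 2). TSC1 was at 46.6 ± 1.86 CPM in EV libraries and 45.9 ± 2.74 CPM in control libraries (log2 fold change 0.02, adjusted p = 0.823, edgeR). The RHEB paralog RHEBL1 fell with DDIT4L, with a log2 fold change of -0.53 ± 0.14 (adjusted p = 0.00575, edgeR). Of 14 tested genes of the kinase branches upstream of TSC, from PI3K and from AMPK, 4 fell and 1 rose. PRKAA2, an AMPK catalytic subunit gene, was at 4.72 ± 0.369 CPM in EV libraries and 8.76 ± 0.954 CPM in control libraries (log2 fold change -0.89 ± 0.13, adjusted p = 1.98e-05, edgeR). PIK3CB, a PI3K catalytic subunit gene, rose by 0.31 on the log2 scale (adjusted p = 0.00239, edgeR); 2 genes rose without EV replicate 2, without control replicate 1 and in 6 settings that kept every library.

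Downstream of mTORC1, 3 of 15 substrates and effectors rose and 7 fell. GRB10, an adaptor that mTORC1 phosphorylates, was at 45.3, 47.4 and 50.1 CPM in the EV libraries and 117, 122 and 117 CPM in the control libraries (log2 fold change -1.32 ± 0.06, adjusted p = 1.5e-11, edgeR). PDCD4, a translation inhibitor (-0.59 ± 0.06, adjusted p = 7.01e-07), and the autophagy kinase gene ULK1 (-0.59 ± 0.07, adjusted p = 3.8e-06) fell as well. The 3 that rose were EIF4EBP2 (0.52 ± 0.07, adjusted p = 9.79e-06, edgeR), EIF4E (0.33 ± 0.07, adjusted p = 0.000603) and RPS6KB1 (0.30 ± 0.07, adjusted p = 0.00129). TFE3, of the TFEB family that mTORC1 keeps out of the nucleus, was at 205 ± 4.96 CPM in EV libraries and 266 ± 20.8 CPM in control libraries (log2 fold change -0.38 ± 0.06, adjusted p = 8.68e-05, edgeR), and TFEB was at 2.67 ± 0.662 CPM in EV libraries and 2.37 ± 0.470 CPM in control libraries (0.16, adjusted p = 0.558).

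**Figure D5:**
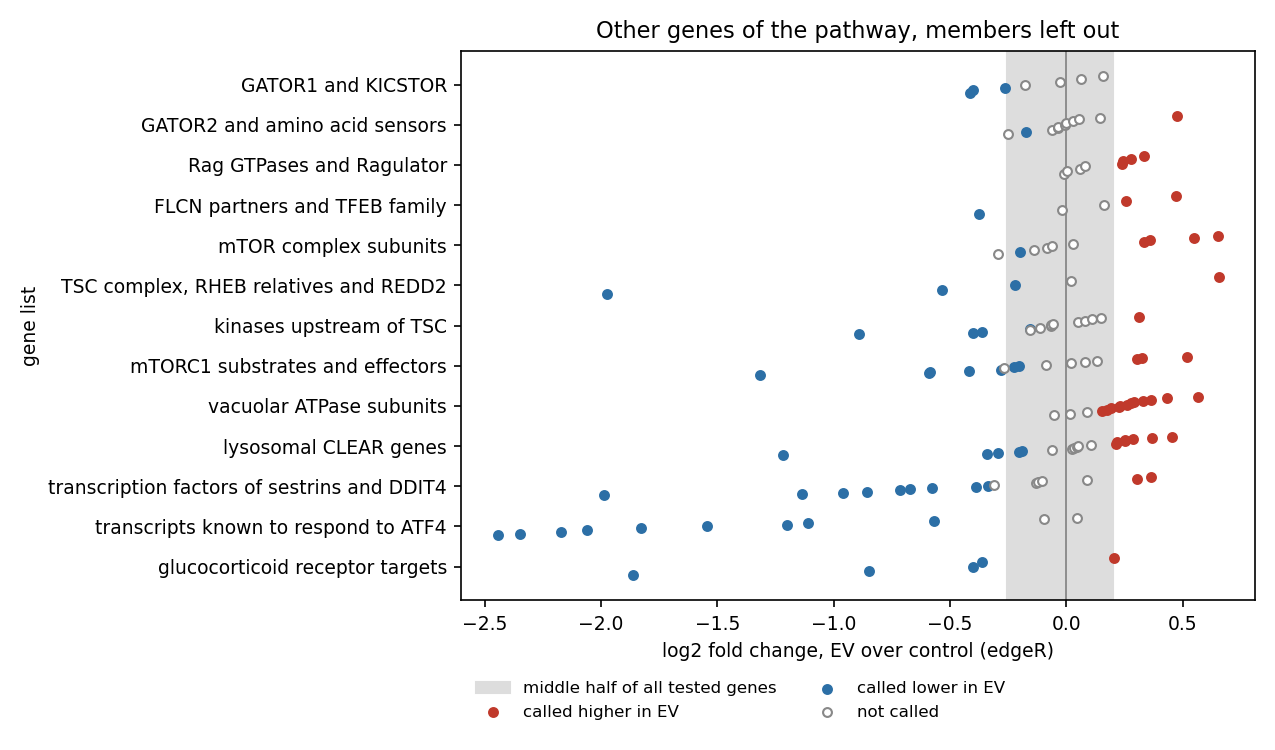
Log2 fold change, EV over control, of each tested gene in 13 lists around the members, with filled points for genes called at an adjusted p under 0.05 and a grey band for the middle 50% of all tested genes. Vacuolar ATPase genes lie mostly to the right (12 of 15 called higher, 0 lower) and ATF4-responsive genes mostly to the left (9 of 11 called lower, 0 higher).

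At the lysosome, where the Rags act, 12 of 15 tested genes of the vacuolar ATPase, the proton pump that takes part in amino acid sensing, rose and 0 fell, with a median log2 fold change of 0.23. That is 80% called higher, against 20.2% of all tested genes, and the count was 9 of 15 without EV replicate 3. The 17 listed genes summed to 1706, 1756 and 1734 CPM in the EV libraries and 1486, 1495 and 1457 CPM in the control libraries, which did not overlap. ATP6V0C and ATP6V0D2, listed but not tested, were at most 0.229 and 0.275 CPM in any library. Why their counts were so low was not tested. ATP6V1D (0.57 ± 0.06, adjusted p = 1.25e-06, edgeR), ATP6V1A (0.43 ± 0.06, adjusted p = 2.66e-05) and ATP6V1E1 (0.36 ± 0.06, adjusted p = 0.000192) had the lowest adjusted p among them. Of 18 lysosomal genes known as TFEB targets, 7 rose and 5 fell (median 0.05). MCOLN1, a lysosomal calcium channel gene (0.46 ± 0.08, adjusted p = 0.000204, edgeR), and GLA, alpha-galactosidase (0.37 ± 0.06, adjusted p = 6.41e-05), rose.

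Transcription factors known to act on the sestrins and DDIT4 fell in 9 of 16 and rose in 2. ATF4 was at 402, 325 and 316 CPM in EV replicates 1, 2 and 3 and 601, 658 and 629.9 CPM in control replicates 1, 2 and 3 (log2 fold change -0.86 ± 0.08, adjusted p = 6.08e-08, edgeR). As for SESN2 and DDIT4, EV replicate 1 was the highest EV library and control replicate 1 the lowest control library. The lowest EV library differed, being replicate 3 for ATF4 and replicate 2 for SESN2 and DDIT4. How many of all genes share such an order was not counted. DDIT3 fell by 1.99 and CEBPB by 0.96 on the log2 scale (adjusted p = 8.98e-11 and adjusted p = 1.45e-09, edgeR). TP63 fell by 1.14 on the log2 scale (adjusted p = 1.81e-10, edgeR). FOXO3, known to act on SESN3, was at 17.9 ± 0.899 CPM in EV libraries and 29.4 ± 2.14 CPM in control libraries (-0.72 ± 0.08, adjusted p = 1.88e-06, edgeR). HIF1A, which encodes the hypoxia factor, rose by 0.30 ± 0.05 (adjusted p = 0.000198). Without EV replicate 1 or control replicate 3, only 1 of these 16 genes rose.

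Transcripts known to respond to ATF4, a list whose direction earlier results of these data had shown, fell in 9 of 11 tested and rose in 0, with a median log2 fold change of -1.54. Beside the -2.03 of SESN2 stood TRIB3, a pseudokinase gene (-2.35 ± 0.09, adjusted p = 1.2e-12, edgeR), CTH (-2.06 ± 0.09, adjusted p = 5.77e-12) and the cystine transporter gene SLC7A11 (-1.83 ± 0.09, adjusted p = 3.91e-11). Of 5 glucocorticoid receptor targets with a row, 4 fell and 1 rose, while the receptor gene NR3C1 was at 44.6 ± 0.0902 CPM in EV libraries and 41.9 ± 2.46 CPM in control libraries (0.09, adjusted p = 0.297, edgeR). TSC22D3, the target known as GILZ, was at 5.62, 3.03 and 3.17 CPM in the EV libraries and 13.0, 14.6 and 15.9 CPM in the control libraries (-1.86 ± 0.17, adjusted p = 6.76e-08). KLF9 (-0.85 ± 0.09, adjusted p = 7.01e-07) and DUSP1 (-0.40 ± 0.08, adjusted p = 0.000765) fell with it. The target that rose was FKBP5, named after its values were seen. It was at 93.1 ± 0.317 CPM in EV libraries and 80.6 ± 2.91 CPM in control libraries (0.21 ± 0.06, adjusted p = 0.00776, edgeR).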

How the data were processed

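The members, the gene lists and the tests were chosen with earlier results of these data known. Per the submitters' processing notes, TopHat, RSEM and the hg19 build were used, with no versions or roles; the annotation used by the authors is unknown here. The authors deposited raw counts per gene for 32453 features; 375 assembled loci without a gene name, 0.0990% to 0.134% of a library's counts, were left out. The authors also deposited group means on the log2 scale, log2 fold changes (control over EV), p-values and q-values, used here only where named.

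The counts went into edgeR 4.0.16 under R 4.3.3 (glmQLFit, glmQLFTest, TMM, filterByExpr, Benjamini-Hochberg adjustment over 14670 genes, threshold 0.05), EV against control without covariates. Each SE was derived from the fitted coefficient and its F statistic. Exon lengths come from GENCODE release 29 (GRCh38), matched by gene identifier; promoter windows come from RefSeq. KICS2 is in the count table as C12orf66. Named were all members, up to 3 called genes per list with the lowest adjusted p, a set of 19 central genes, and the 5 nearest profiles of SESN2 and DDIT4. Some genes that this rule names are counted in their lists but not reported here by name. Alternatives were other scalings and filters, each library left out, a replicate block, DESeq2 1.42.0 and limma-voom (limma 3.58.1), and keeping the unnamed loci. No pair of replicates agreed within sampling noise.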

Additional observations from a re-analysis of the deposited data

How the results depend on the processing

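As a description of members chosen from this contrast, the log2 fold changes over 16 other settings ran from -2.15 to -1.94 for SESN2, from -1.99 to -1.64 for DDIT4 and from 0.64 to 0.96 for CASTOR2. DEPTOR ran from -0.91 without EV replicate 1 to -0.37 without EV replicate 2, and FLCN from 0.16 to 0.20. The genes called ran from 5422 (DESeq2) to 6088 (unnamed loci kept) of all tested genes with every library kept, and from 4756 to 5612 with a library left out. Over all lists together, ATF4-responsive and glucocorticoid lists included, the main fit tested 140 pathway genes and called 38 higher and 47 lower. That is 60.7% called, against 40.9% of all tested genes, in lists chosen with earlier results of these data known. In the other settings, pathway genes called higher ran from 33 to 39 and lower from 40 to 49. Of 56 other named genes, 51 kept their call in all settings run. Same-numbered replicates correlated at -0.04, -0.02 and -0.03 in their deviations from the group means, so the numbers were not taken as pairs, and no library correlated best with its own number. With the replicate number as a block, 5743 genes were called, 37 pathway genes higher and 46 lower. Depth limits SESN3, DEPTOR and DDIT4L most among the genes named.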
